A study of Mus musculus with 6 samples.

Results

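The genes described are 10 members of the interleukin-1 (IL-1) family and of the inflammasome, and all 10 were found among the 46095 gene symbols of the count table. They are the ligands Il1a, Il1b and Il18, the antagonist Il1rn, the receptor genes Il1r1 and Il1rap, the sensor Nlrp3, its adaptor Pycard, the protease Casp1 and the pore protein Gsdmd. They were chosen by symbol as a functional family, with results of the comparison between CON and sTREM-1 counts already known. Their fold changes and calls are therefore a description of these libraries, given without p-values. The cells were BV2, mouse microglia that were immortalized and grow as a line. RNA of 3 libraries without treatment (CON group) was compared with that of 3 libraries after 6 h with 1 μg/mL of recombinant sTREM-1, the soluble form of the receptor TREM-1. All libraries come from 1 cell line, and the labels speak of wells of culture plates and of no separate cultures, so the spread between libraries may be technical. The authors deposited raw counts, and the library totals ran from 40070633 to 45877107 counts. In RNA of whole cultures, fewer cells that express a gene and less RNA per cell cannot be told apart.

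IL-1α and IL-1β bind the same receptor, which is made of IL1R1 and the accessory protein IL1RAP and signals through MyD88 to NF-κB. The receptor antagonist IL-1Ra, encoded by Il1rn, binds IL1R1 without signaling and so limits both agonists. IL-1β and IL-18 are made as inactive precursors and are cut by caspase-1, which is activated on an inflammasome of a sensor such as NLRP3 and the adaptor ASC (gene Pycard). Caspase-1 also cuts gasdermin D, whose free end forms pores in the cell membrane. In microglia and macrophages, the RNA of several of these genes is raised by inflammatory stimuli before the proteins are activated, and RNA counts do not show cleavage or release.

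Compared with the CON group, the antagonist gene Il1rn fell by 44.2% after sTREM-1, while Nlrp3, Casp1, Gsdmd, Il18 and Il1a rose by between 12.4% and 31.3%. Il1rap was also called higher, by 40.5%, but its groups overlapped. Il1b, Il1r1 and Pycard gave no call. Of the 10 genes, 9 had enough counts to be tested and 1, Pycard, had 0 counts in every library. Of the 9, edgeR's quasi-likelihood test called 7 (Benjamini-Hochberg adjusted p below 0.05), and the calls split into 6 higher and 1 lower. Over all 14120 tested genes 30.5% were called, 16.5% higher and 14.1% lower, and since the family was proposed with this comparison known, nothing is read from the difference. The groups did not overlap for 6 of the 9 genes, against 40.7% of all tested genes. At least a 1.5-fold change with the same threshold was reached by 1 of the 9, Il1rn, against 2.13% of all tested genes. The median log2 fold change of the 9 was 0.18, and that of all tested genes was -0.0017. The calls of Il1a, Il18 and Il1rap were lost in some fits that left out a library, which is given beside each gene.

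**Figure D1:**
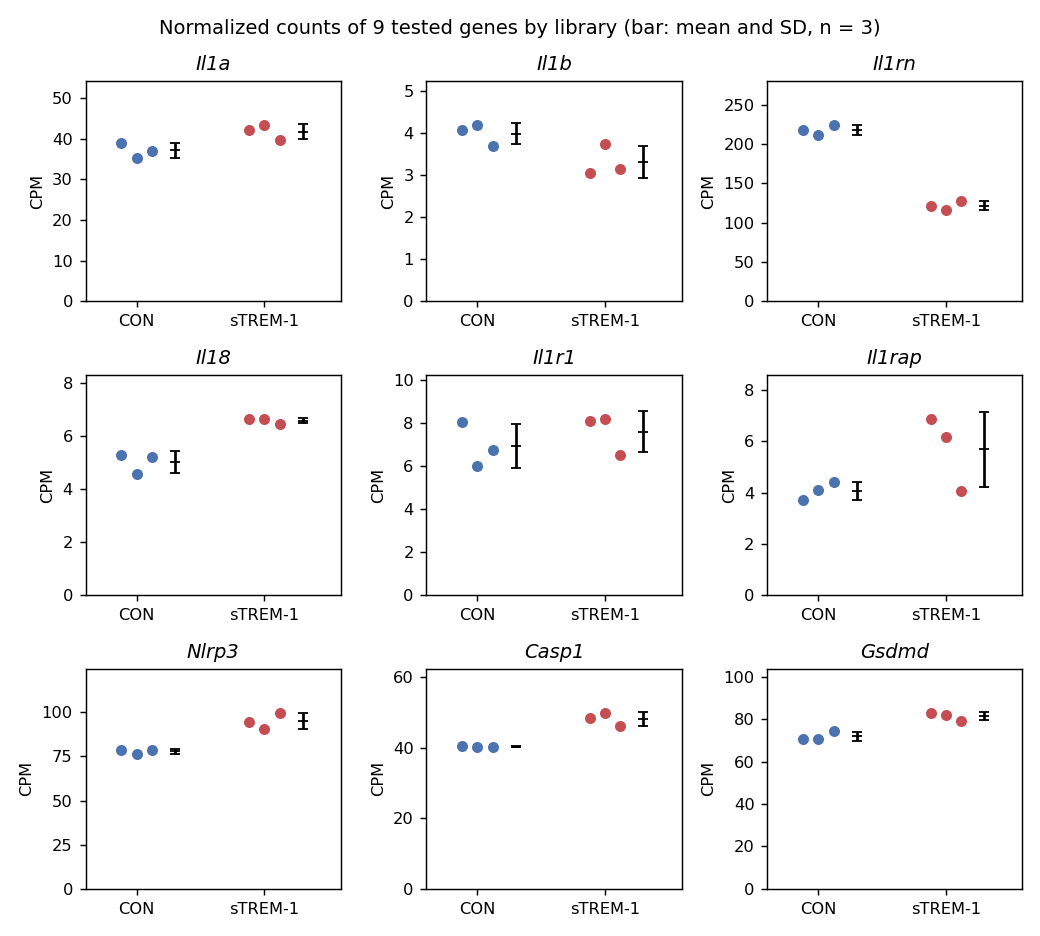
Normalized counts (CPM, read counts relative to the library size after TMM scaling) of the 9 tested genes in each of the 3 CON and 3 sTREM-1 libraries, with the mean and SD beside the points. Il1rn lies between 212 and 224 CPM in the CON group and between 116 and 128 CPM after sTREM-1, while the Il1b, Il1r1 and Il1rap points of both groups overlap.

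Of the genes whose products bind IL1R1, the antagonist fell, Il1a rose and Il1b was not called. Il1rn, the antagonist, had 218, 212 and 224 CPM in CON replicates 1, 2 and 3 and 121, 116 and 128 CPM in sTREM-1 replicates 1, 2 and 3. All sTREM-1 libraries were lower than all CON libraries, and the gap between the groups was far wider than the range within either. Mean levels were 218 ± 5.92 CPM without and 122 ± 5.96 CPM with sTREM-1 (SD, n = 3 each), and the log2 fold change was -0.84 (standard error 0.032). A fall of that size or larger was seen in 214 of the tested genes (1.52%). Among the 848 genes with at least the mean CON count of Il1rn, only 1 fell that far and was called lower, Il1rn itself. Both cutoffs were Il1rn's own values, so it is counted by construction, and its place is a description only.

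Il1a, an agonist that also acts in the nucleus and at the cell surface, had 39.0, 35.4 and 37.1 CPM in the CON libraries and 42.3, 43.4 and 39.7 CPM in the sTREM-1 libraries. The groups did not overlap, but the highest CON and the lowest sTREM-1 value were close. Its log2 fold change was 0.17 (standard error 0.050), and the call was lost without CON replicate 2 (0.13) and without sTREM-1 replicate 2 (0.14).

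Il1b, the agonist that caspase-1 cuts, was counted 167, 172 and 151 times in the CON group and 139, 160 and 125 times with sTREM-1, or 3.99 ± 0.259 and 3.32 ± 0.383 CPM (SD, n = 3 each). The sTREM-1 libraries tended lower, yet the highest of them lay above the lowest CON library after scaling, with 3.75 against 3.70 CPM. The log2 fold change was -0.27 (standard error 0.15) with a 95% interval from -0.70 to 0.16 on 4 residual degrees of freedom, an interval that spans a fall and a small rise.

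Il18, the other ligand that caspase-1 cuts, had 217, 187 and 213 counts in the CON group and 304, 284 and 257 counts after sTREM-1. After scaling these were 5.30, 4.56 and 5.22 CPM against 6.65, 6.66 and 6.48 CPM, with no overlap. The sTREM-1 libraries were close to each other and CON replicate 2 was the lowest of all. The log2 fold change was 0.39 (standard error 0.12), and without CON replicate 2 it was 0.33 and no longer called.

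Because Il1rn and the agonists compete for the same receptor, their levels were set against each other in each library after division by exon length (the union of exons in GENCODE M21). There were 1.80, 1.90 and 1.95 units of Il1rn per unit of Il1a plus Il1b in the CON libraries and 0.950, 0.873 and 1.06 in the sTREM-1 libraries. The ratio thus stood at 1.88 ± 0.075 in the CON group and 0.961 ± 0.094 after sTREM-1 (SD, n = 3 each), or 0.511 of the CON ratio. In counts without length scaling it was 5.29 ± 0.21 and 2.7 ± 0.26 (SD, n = 3 each), also 0.511 of the CON ratio. In the CON group the antagonist RNA thus lay above that of the agonists with and without length scaling. After sTREM-1, whether it lay above or below depends on the lengths used. The value is a ratio of RNA, whose change carries the fall of Il1rn already described. Within the agonists, Il1a exceeded Il1b by 9.03 ± 0.78-fold in the CON group and by 12.3 ± 1.1-fold after sTREM-1 (SD, n = 3 each), so Il1a made up most of the agonist RNA in both groups.

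**Figure D2:**
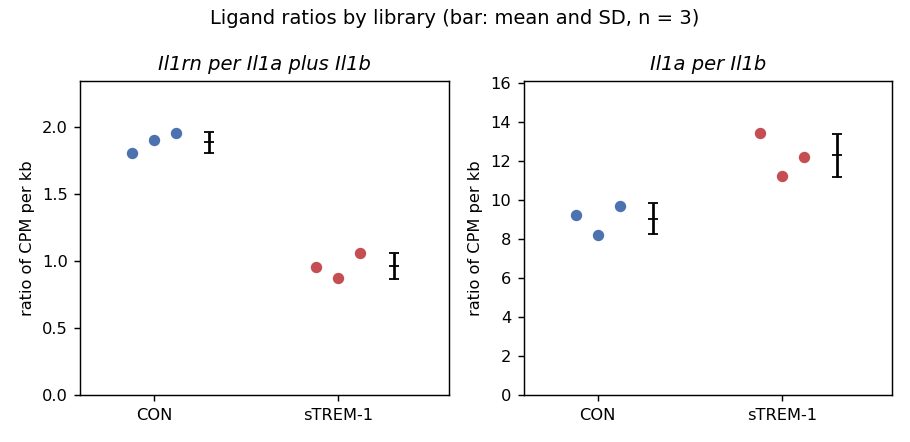
Ratios of length-scaled levels (CPM per kb of exon) in each library, Il1rn per Il1a plus Il1b on the left and Il1a per Il1b on the right, with mean and SD beside the points. The 3 sTREM-1 libraries sit between 0.873 and 1.06 on the left, below the CON libraries at 1.80 to 1.95, and above the CON libraries on the right.

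Il1a, Il1b and Il1rn all lie on chromosome 2, and the 250 bases before their RefSeq start sites (build GRCm38.p6) are shown because these 3 genes encode ligands of the same receptor and the values above turn on them. The count table itself holds no coordinates and its mouse build is not given in the sources used here. Capitals mark matches on either strand to TATAAA (a core promoter box), TGANTCA (AP-1), GAGGAAGT (ETS factors such as PU.1), TTGNNCAA (C/EBP), an NF-κB motif (3 G, 2 free bases, 3 T and 2 C) and an ISRE motif (3 T and 1 C, 2 free bases, and again 3 T and 1 C). The windows are Il1a at chr2:129309973-129310222 on the minus strand, Il1b at chr2:129371140-129371389 on the minus strand, and Il1rn at chr2:24336610-24336859 and chr2:24345041-24345290 on the plus strand.
Il1a: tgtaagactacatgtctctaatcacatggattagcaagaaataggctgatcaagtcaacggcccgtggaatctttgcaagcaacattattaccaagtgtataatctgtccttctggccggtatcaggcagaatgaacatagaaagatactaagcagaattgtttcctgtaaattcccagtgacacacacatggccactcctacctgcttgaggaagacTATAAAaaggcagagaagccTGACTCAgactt
Il1b: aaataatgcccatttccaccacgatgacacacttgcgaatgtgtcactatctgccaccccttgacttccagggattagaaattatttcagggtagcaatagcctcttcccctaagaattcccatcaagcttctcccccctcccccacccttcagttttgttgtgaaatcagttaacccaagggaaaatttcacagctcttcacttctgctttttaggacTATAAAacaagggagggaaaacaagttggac
Il1rn, first start: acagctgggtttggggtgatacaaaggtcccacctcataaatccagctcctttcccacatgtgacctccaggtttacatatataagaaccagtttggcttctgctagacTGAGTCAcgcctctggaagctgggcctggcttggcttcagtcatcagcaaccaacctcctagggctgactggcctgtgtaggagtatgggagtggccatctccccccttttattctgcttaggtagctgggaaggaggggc
Il1rn, second start: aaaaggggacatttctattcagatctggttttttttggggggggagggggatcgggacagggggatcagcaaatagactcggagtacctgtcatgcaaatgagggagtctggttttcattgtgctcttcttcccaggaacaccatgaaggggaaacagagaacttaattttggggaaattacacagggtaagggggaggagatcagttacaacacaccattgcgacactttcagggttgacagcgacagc

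The windows of both agonist genes held TATAAA, beginning 32 bases before the start in Il1a and 31 bases before it in Il1b, letters that 12.4% of the 32851 windows of the same length in the RefSeq table hold. Il1a also held TGACTCA 12 bases before its start, and the first Il1rn window held TGAGTCA 141 bases before its start, where 6.75% of all windows hold TGANTCA. Neither Il1rn window printed here held TATAAA. A further Il1rn start lies close downstream of the second, and its window (chr2:24345121-24345370) held GGGTTTTTCC 51 bases before that start, against 1.41% of all windows for the NF-κB letters. Over the 13 windows found for 9 of the genes (not Gsdmd), the matches numbered 1 for NF-κB, 1 for ETS, 2 for AP-1, 3 for TATA and 0 for ISRE and C/EBP. A match is a run of letters and not a shown binding site, and counts per gene do not say which Il1rn start was used.

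The receptor genes had few counts and varied most between libraries. Il1r1, which binds the ligands, had 330, 246 and 277 counts in the CON group and 371, 350 and 259 counts after sTREM-1, or 6.95 ± 1.04 and 7.62 ± 0.947 CPM (SD, n = 3 each). The groups overlapped, with 1 low library in the sTREM-1 group and 1 high library in the CON group. The log2 fold change was 0.14 (standard error 0.12), and its 95% interval ran from -0.19 to 0.46.

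Il1rap, the accessory chain shared by the receptors of IL-1 and IL-33, had 151, 168 and 180 counts in the CON group and 314, 262 and 161 counts after sTREM-1, or 3.69, 4.10 and 4.41 against 6.87, 6.15 and 4.06 CPM. sTREM-1 replicates 1 and 2 lay above all CON libraries, while replicate 3 lay below 2 of them. The log2 fold change of 0.49 (standard error 0.15) was called, but it was lost without CON replicate 1 (0.43), without sTREM-1 replicate 1 (0.33) and without sTREM-1 replicate 2 (0.43), and was 0.68 without sTREM-1 replicate 3. Its SD was 25.7% of the mean after sTREM-1, the widest of the 9 genes, so the rise of Il1rap rests on the choice of libraries.

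The sensor, the protease and the pore gene rose together by modest amounts. Nlrp3, the sensor, had 78.9, 76.5 and 78.4 CPM in the CON libraries and 94.6, 90.5 and 99.8 CPM in the sTREM-1 libraries. Casp1 had 40.5, 40.2 and 40.2 CPM against 48.5, 49.9 and 46 CPM. Gsdmd had 70.6, 70.6 and 74.5 CPM against 83.1, 82.2 and 79.3 CPM. For each of these 3 genes every sTREM-1 library lay above every CON library. The log2 fold changes were 0.28 for Nlrp3 (standard error 0.037), 0.26 for Casp1 (standard error 0.045) and 0.18 for Gsdmd (standard error 0.037), or rises of 21.8%, 19.5% and 13.4%. All 3 kept their call in each of 11 alternative fits, including those without any single library.

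**Figure D3:**
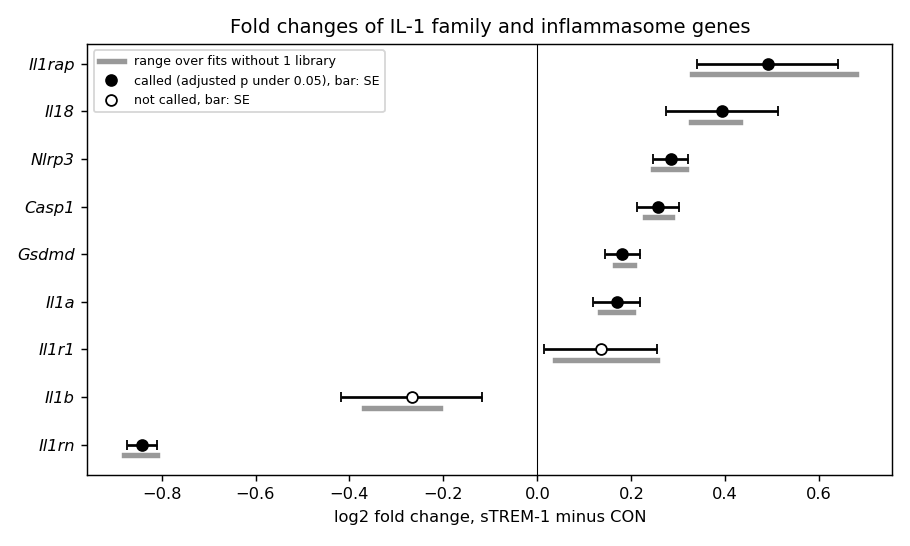
Log2 fold change (sTREM-1 minus CON) of the 9 tested genes with its standard error, filled where called and open where not, and in grey the range over the 6 fits that each left out 1 library. Il1rn stands alone at -0.84, Il1b and Il1r1 are open, and the grey range of Il1rap runs from 0.33 to 0.68.

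Pycard, the adaptor that joins the sensor to caspase-1, had 0 counts in all 6 libraries, which allows up to between 0.0657 and 0.0756 CPM per library (3 counts, counting error only). The lowest other gene of the family, Il1b after sTREM-1, averaged 3.32 CPM. Of 17 protein-coding neighbours of Pycard within 200 kb on either side, 1 was also at 0, and the neighbouring gene Prss36 was counted in every library (118 to 169 counts). The exons of Pycard overlap 485 bases of Gm45205 in the annotation, a gene not analysed here. Whether the 0 of Pycard comes from the cells or from the counting was not tested.

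Compared per length of exon, the order of the levels in the CON group was Il1rn (39.4 ± 1.07 CPM per kb), Gsdmd (30.3 ± 0.941), Casp1 (26.9 ± 0.0989), Nlrp3 (19.2 ± 0.305), Il1a (18.8 ± 0.907), Il18 (4.87 ± 0.394), Il1b (2.09 ± 0.136), Il1r1 (1.09 ± 0.163) and Il1rap (0.358 ± 0.0318), each with SD and n = 3. Only Nlrp3 and Il1a overlapped among neighbours in that order. After sTREM-1 Il1rn stood at 22 ± 1.08 CPM per kb (SD, n = 3), behind Gsdmd (34.3 ± 0.844), Casp1 (32.2 ± 1.31) and Nlrp3 (23.4 ± 1.15). In that group Il1rn overlapped with Nlrp3 above it and with Il1a below it, at 21.2 ± 0.972 CPM per kb, while the lowest Nlrp3 library (22.3) lay above the highest Il1a library (22). The order from Il18 to Il1rap was the same in both groups, with no overlap between neighbours. Lengths are unions of all annotated exons and overstate the length of genes with several transcripts. In CPM without division by length, Il1rn was the highest of the tested genes of the family in both groups. After sTREM-1 it had 122 CPM against 94.9 CPM for Nlrp3 and 81.5 CPM for Gsdmd, so its lower place depends on the lengths used.

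**Figure D4:**
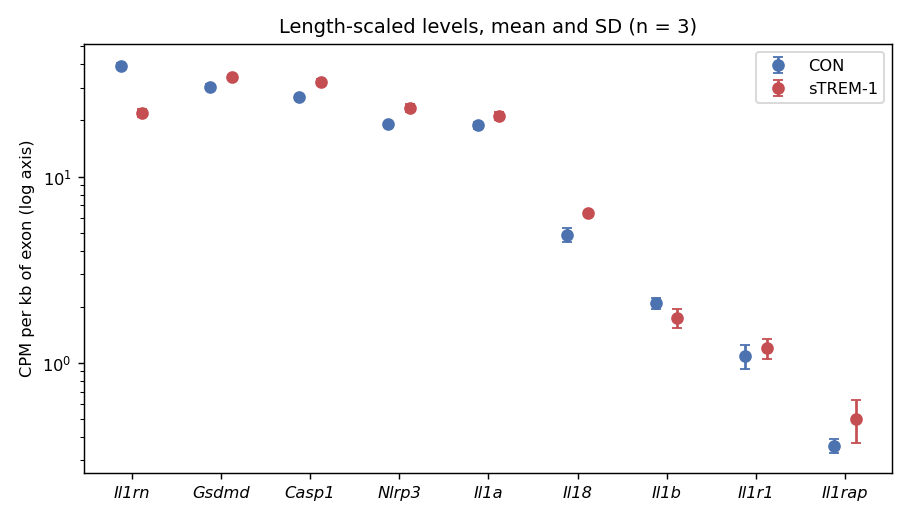
Mean level (CPM per kb of exon, log axis) with SD (n = 3) of the 9 tested genes in the CON and sTREM-1 groups, ordered by the CON level. Il1rn moves from 39.4 to 22 CPM per kb, from the highest level to among Nlrp3 and Il1a, while Il18, Il1b, Il1r1 and Il1rap keep their places far below. Without division by length Il1rn stays the highest of the 9 genes in both groups.

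Of the 10 genes, 4 share annotated exon bases with another gene, and without a stated strand rule reads of such pairs cannot be told apart. Il1a shares 222 bases with Gm14023, which had 59 to 80 counts per library against at least 1454 for Il1a. Il1b shares 25 bases with Il1bos (1 to 6 counts), and Il1rap shares 552 bases with Gm20319 (0 counts). Il1rn, Il18, Il1r1, Nlrp3, Casp1 and Gsdmd share none.

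Further genes of the same pathways were read from 6 lists. Like the family, the lists were chosen with earlier results of these data known, so their calls and adjusted p-values describe these libraries. Over all 14120 tested genes 30.5% were called, 16.5% higher and 14.1% lower, and nothing is read from a difference to these shares. Among other receptors and decoys, 2 of 4 tested genes rose and 0 fell, with a median log2 fold change of 0.01. Il1rl1, which encodes the IL-33 receptor that pairs with the Il1rap product, stood at 2.48 ± 0.185 CPM without and 4.28 ± 0.275 CPM with sTREM-1 (SD, n = 3 each) and rose by 0.79 on the log2 scale (edgeR quasi-likelihood adjusted p = 0.000289). Its ligand gene Il33 was counted once at most in any library. Il18rap, the accessory chain for IL-18, rose from 5.17 ± 0.929 to 6.73 ± 0.279 CPM (SD, n = 3 each; edgeR adjusted p = 0.0225), a log2 fold change of 0.38 whose call was lost without CON replicate 1 (0.24) and without sTREM-1 replicate 3 (0.35), whereas Il18r1, the chain that binds IL-18, had 0 counts in all libraries. The decoy receptor gene Il1r2 had 0.676 CPM against 0.436 CPM (edgeR adjusted p = 0.253).

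Among other ligands and soluble inhibitors, 2 of 6 found were tested and 0 were called by edgeR's quasi-likelihood test, also 0 at an unadjusted p under 0.05 and 0 with DESeq2. Il18bp, which encodes the soluble binder of IL-18, had 2.27 CPM in the CON group and 2.46 CPM after sTREM-1 (edgeR adjusted p = 0.76).

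Among the other inflammasome sensors, 1 of 9 tested genes rose and 0 fell. The called gene was Naip6, of the NAIP group that senses bacterial proteins with NLRC4, at 45.5 ± 0.934 CPM in the CON group and 50.6 ± 2.43 CPM after sTREM-1 (SD, n = 3 each; edgeR adjusted p = 0.00958), a log2 fold change of 0.15 whose call was lost without CON replicate 1 (0.14) and without sTREM-1 replicate 2 (0.12). Naip genes are near-identical copies whose reads may be split in counting. Aim2, the DNA sensor, had 125 CPM against 119 CPM (edgeR adjusted p = 0.0614), and Nlrc4 had 17.4 CPM against 18.6 CPM (edgeR adjusted p = 0.371). Whether Nlrp3 changed more than these sensors was not tested.

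Among caspases, gasdermins and regulators of NLRP3, 6 of 11 tested genes rose and 1 fell, with a median log2 fold change of 0.12. Panx1, a channel for ATP release, rose from 5.59 ± 0.377 to 7.43 ± 0.562 CPM (edgeR adjusted p = 0.00553). Ninj1, which ruptures the membrane after gasdermin pores open, rose from 121 ± 4.18 to 154 ± 7.08 CPM (edgeR adjusted p = 2.02e-09). Pstpip1, a partner of pyrin, rose from 74.9 ± 1.08 to 87.2 ± 3.78 CPM (edgeR adjusted p = 2.7e-05). Txnip, a thioredoxin-binding protein that can bind NLRP3, fell from 2120 ± 10 to 1890 ± 13.1 CPM (edgeR adjusted p = 1.08e-08), with n = 3 each and SD throughout. Casp4, the murine caspase-11 gene that also cuts gasdermin D, had 40.5 CPM against 39.0 CPM (edgeR adjusted p = 0.451).

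Downstream of the receptor, 5 of 18 tested signaling genes rose and 4 fell, and their median log2 fold change was 0. The largest rises were in Nfkbia, the NF-κB inhibitor (129 to 147 CPM, edgeR adjusted p = 2.31e-05), Myd88, the adaptor (56.8 to 62.7 CPM, edgeR adjusted p = 0.00967), and Traf6 (51.2 to 55.2 CPM, edgeR adjusted p = 0.0446). The call of Myd88, a log2 fold change of 0.14, was lost without CON replicate 1 (0.11) and without CON replicate 3 (0.13). The call of Traf6 was lost on leaving out any single library, with RLE scaling, with no count filter and with DESeq2. The largest falls were in the kinase genes Irak1 (89.9 to 77.8 CPM, edgeR adjusted p = 2.15e-05), Chuk (120 to 106 CPM, edgeR adjusted p = 6.62e-05) and Irak2 (140 to 129 CPM, edgeR adjusted p = 0.0023).

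Of 14 genes that IL-1 is known to induce, 11 were tested, 3 rose and 8 fell, and the median log2 fold change was -0.25. Of all tested genes 16.5% were called higher and 14.1% lower. Csf3, encoding the granulocyte growth factor G-CSF, fell from 23.5 ± 1.13 to 11.9 ± 0.584 CPM (edgeR adjusted p = 8.66e-12). Il6 fell from 33.2 ± 1.44 to 21.0 ± 1.03 CPM (edgeR adjusted p = 2.85e-10), and Ptgs2, encoding the prostaglandin-forming cyclooxygenase-2, from 679 ± 21.0 to 483 ± 14.5 CPM (edgeR adjusted p = 1.82e-15). Icam1, an adhesion molecule, rose from 27.5 ± 1.97 to 35.6 ± 2.66 CPM (edgeR adjusted p = 1.16e-05), with SD and n = 3 for each value. Saa3, an acute-phase protein gene, rose from 160 to 181 CPM (edgeR adjusted p = 2.05e-05), and Nos2, the inducible nitric oxide synthase gene, from 597 to 641 CPM (edgeR adjusted p = 0.00687), a log2 fold change of 0.10 that was 0.05 and not called without sTREM-1 replicate 3 and was also not called by DESeq2. Tnf is listed at 0 in every library, as are 26 of the 30 protein-coding genes within 200 kb of it, so its 0 says nothing of the cells. These genes answer to many other stimuli, and whether they moved with Il1rn or the agonists was not tested.

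**Figure D5:**
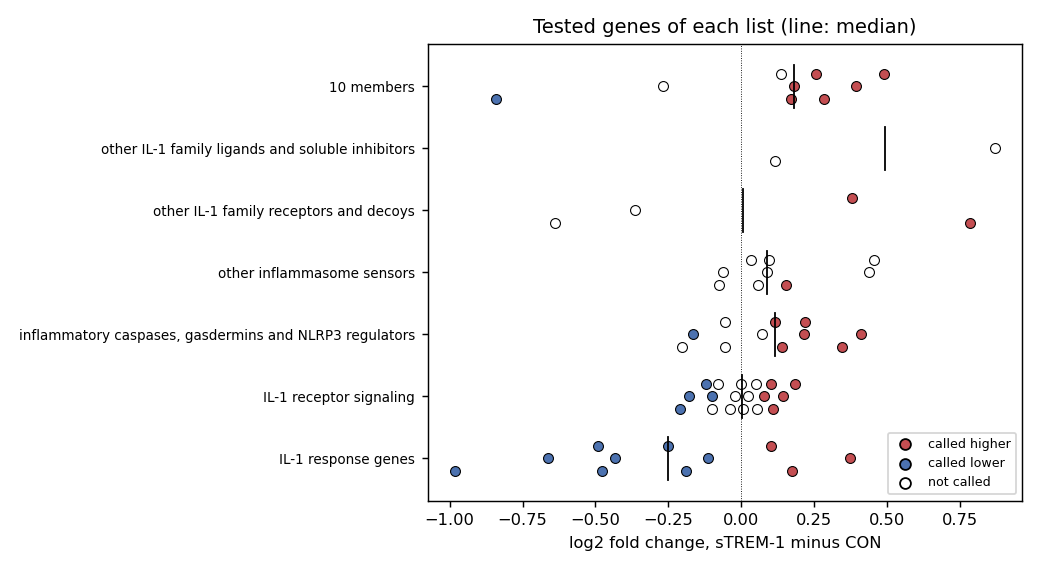
Log2 fold change (sTREM-1 minus CON) of every tested gene of the IL-1 and inflammasome family (top row, 9 of 10 genes) and of 6 further lists, coloured where called, with the median of each list as a vertical line. The response genes have a median of -0.25 and the family a median of 0.18, with Il1rn as its only called gene left of 0.

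The libraries were alike in depth, with typical log2 distances of 0.353 to 0.369 within groups and 0.397 to 0.431 between them. The largest distance of each kind involved sTREM-1 replicate 3, at 0.369 from sTREM-1 replicate 2 and 0.431 from CON replicate 1. Of 11 microglia and macrophage markers, 10 were tested, 4 rose and 0 fell, where 16.5% of all tested genes were called higher and 14.1% lower. The summed level of these markers was 2390 to 2420 CPM in the CON group and 2630 to 2710 CPM after sTREM-1. Most of that difference was Csf1r, the receptor that maintains microglia, which rose from 521 to 753 CPM (edgeR adjusted p = 2.88e-17). Without Csf1r the other 10 markers summed to 1865 to 1895 CPM in the CON group and 1895 to 1941 CPM after sTREM-1. Ptprc (346 to 371 CPM, edgeR adjusted p = 0.00186) and Trem2 (116 to 128 CPM, edgeR adjusted p = 0.000984) were called higher. Cx3cr1 was also called higher, at a low level (0.945 to 1.77 CPM, edgeR adjusted p = 0.0156). Cd68 (605 to 589 CPM, edgeR adjusted p = 0.249) and Tyrobp (300 to 293 CPM, edgeR adjusted p = 0.261) were not called. Itgam, Spi1, P2ry12 and Tmem119 were not called either. Aif1 is listed at 0 in the same stretch of the genome as Tnf. The part of these marker changes in the changes of the family was not tested. Markers of astrocytes, neurons, fibroblasts, neutrophils and T cells each summed to at most 0.479 CPM, and those of oligodendrocytes to 5.63 to 7.84 CPM. Trem1, the gene of the added protein's parent receptor, had 0.717 ± 0.306 CPM in the CON group and 0.597 ± 0.0986 CPM after sTREM-1 (SD, n = 3 each; edgeR adjusted p = 0.681).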

How the data were processed

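RNA was sequenced by the authors in BV2 cells, and 3 CON and 3 sTREM-1 libraries were analysed here, the number per group in the labels (the methods text gives another). The deposited values are raw read counts per gene symbol, not normalized. The methods name RSEM for transcript levels, and how the authors made the counts is not given in the sources used here. The submitters' processing notes name HISAT2 2.0.4 and the human builds hg19 and GRCh38, while 41483 of the 46095 symbols are current mouse symbols. The mouse build and strand rule are not given in the sources used here, so reads of overlapping or near-identical genes may be split or lost.

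Groups came from the labels. In edgeR 4.0.16 (R 4.3.3), filterByExpr with a minimum count of 10 kept 14120 genes, TMM set the scale, and the quasi-likelihood test compared the groups without covariates. CPM are counts relative to the TMM-scaled library size. The standard error was the log2 fold change over the square root of F. The 95% intervals used 4 residual degrees of freedom, fewer than the moderated quasi-likelihood test has, so they are wider than that test implies. Lengths came from GENCODE M21 and promoters from RefSeq (GRCm38.p6). The tests were checked on simulated data. The alternatives were RLE scaling, other count filters, DESeq2 1.42.0, a replicate block, stricter thresholds and leaving out each library. The 10 genes and the 6 lists were chosen with earlier results of these data known. Of 73 genes on the lists, 72 were matched (Il36rn is not analysed here). Genes named from a list were the called ones, at most 3 per direction by absolute log2 fold change, plus Il1r2, Il18bp, Il33, Casp4, Aim2, Nlrc4, Myd88, Il6, Tnf and Trem1. Il18r1, Prss36 and all named microglia and macrophage markers were named after their values were seen.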

Additional observations from a re-analysis of the deposited data

How the results depend on the processing

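Of 407 refits of 37 called genes, 372 kept the call and 35 lost it, and of 307 refits of 28 genes that were not called, 5 gained a call, with 0 calls in the opposite direction. In the family, 4 of the 7 called genes (Il1rn, Nlrp3, Casp1 and Gsdmd) kept their call in every refit, and Il1b and Il1r1 were called in 0 refits. With at least a 1.5-fold change, 301 genes were called (130 higher, 171 lower), 1 of them in the family, 1 among other receptors, 2 among response genes and 0 among sensors, caspases and NLRP3 regulators, and receptor signaling genes. An adjusted p under 0.01 left 5 genes of the family (4 higher, 1 lower), without Il18 and Il1rap. It also left 1 gene among other receptors and 6 among signaling genes. The sensors called numbered 2 with at least 10 counts in every library, where Aim2 joined. Over the fits without 1 library each, 3608 to 3863 genes were called in all, with 5 to 7 in the family, 1 to 3 among receptors (1 without CON replicate 1 or sTREM-1 replicate 3), 0 to 1 among sensors (0 without CON replicate 1) and 5 to 8 among signaling genes (5 without CON replicate 3). Without sTREM-1 replicate 2 the 1 sensor called was called lower, while Naip6 lost its call. RLE scaling called 4312 genes, no count filter 4196 and DESeq2 4007.

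Over all tested genes, same-numbered libraries did not deviate together (correlations of -0.018, -0.033 and -0.014). These values do not exclude a pairing that touched only a part of the genes. With the replicate block 4613 genes were called, against 4312 without it, and 7 of the 4613 were in the family and 2 among sensors. Il1b had 125 to 172 counts per library, which limits its precision.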
